A study of Mus musculus with 15 samples.

Results

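Cytosine methylation was compared between 5 mice kept for 6 months in an enriched environment and 5 mice kept for 6 months in standard cages. The series also holds 5 mice moved back to standard cages after enrichment, so these are 10 of its 15 mice. They give no value below, except where a test borrows their spread. All 10 mice were female C57BL/6JRj mice aged 7.5 months, and no allele or agent is named for either group. The tissue was the dentate gyrus, micro-dissected from the hippocampus, and 1 library was made per mouse. The labels name 1 housing condition per mouse and do not say which mice shared a cage. The members are the CpG positions with a value in at least 3 mice of each of these 2 groups. They number 455836 of the 2918114 cytosine positions in the table, and 455664 were used after 172 positions on the Y chromosome or the mitochondrial genome were left out. Plus and minus strand cytosines of a CpG count as separate positions. Among 47378 of these positions that lie in RefSeq promoter sequences, 47378 had a C followed by a G on their strand.

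In mammals most cytosine methylation sits at CpG dinucleotides, where both strands usually carry it because the maintenance methyltransferase copies the mark after replication. CpG-rich gene starts are mostly free of methylation, gene bodies and the space between genes mostly carry it, and imprinted genes carry it on 1 parental allele. The dentate gyrus is packed with granule neurons and is one of the places where neurons are born in the adult brain. Environmental enrichment, which offers larger cages and objects to explore, is known for raising the number of these new neurons. Reduced representation bisulfite sequencing (RRBS) reads the CpG-rich ends of restriction fragments after bisulfite has converted unmethylated cytosines, so a value is the percent of reads that kept the cytosine.

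The deposited percentages carry no coverage, so the depth behind each value is unknown. The number of positions with a value gives a partial view of it. It ran from 297716 in standard 1 to 419201 in enriched 3, with a mean of 379689 ± 46883 (SD, n = 5) in standard mice and 379503 ± 33004 (SD, n = 5) in enriched mice. The group difference of -186.4 positions had an exact permutation p of 0.992 (two-sided, over all arrangements of 5 against 5 mice). A value in all 10 mice was present at 124223 positions. The methylation levels of 2 mice of the same group correlated at r = 0.902 to 0.933 over CpG positions, and those of 2 mice of different groups at r = 0.901 to 0.940.

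Mean CpG methylation was close in the groups. The standard mice stood at 38.97%, 38.5%, 38.2%, 38.8% and 39.1%, and the enriched mice at 40.1%, 37.9%, 38.1%, 38.96% and 39.3%. The enriched mice included both the highest and the lowest value of the 10. The means were 38.7% ± 0.374 in standard and 38.9% ± 0.899 in enriched mice (SD, n = 5 each), a difference of 0.162 points with a two-sided exact permutation p of 0.738. Positions were then divided by place. The 125817 positions within 1 kb of a RefSeq gene start averaged 4.92% ± 0.149 in standard and 4.96% ± 0.255 in enriched mice (SD, n = 5 each). The 162617 positions in the rest of genes averaged 44.6% ± 0.596 and 44.7% ± 1.14, and the 167230 positions between genes 58.4% ± 0.418 and 58.7% ± 1.13. The largest difference was on the X chromosome, which in female cells has 1 inactive copy with methylated gene starts. Its 14457 positions averaged 65.1% ± 1.26 in standard and 66.1% ± 1.64 in enriched mice, and the difference of 1.02 points had an exact permutation p of 0.278 (adjusted over 4 classes, 0.841). Gene starts averaged 32.03% and 33.7% on the X chromosome and 4.21% in both groups on the autosomes. The adjusted p was 0.841 in each of the 4 classes, of which the X chromosome overlaps the other 3. Divided by level, the differences were -0.03 points at positions under 20%, 0.62 points from 20% to 80% and 0.16 points over 80%, with an adjusted exact permutation p of 0.849 in each of these 3 classes.

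**Figure D1:**
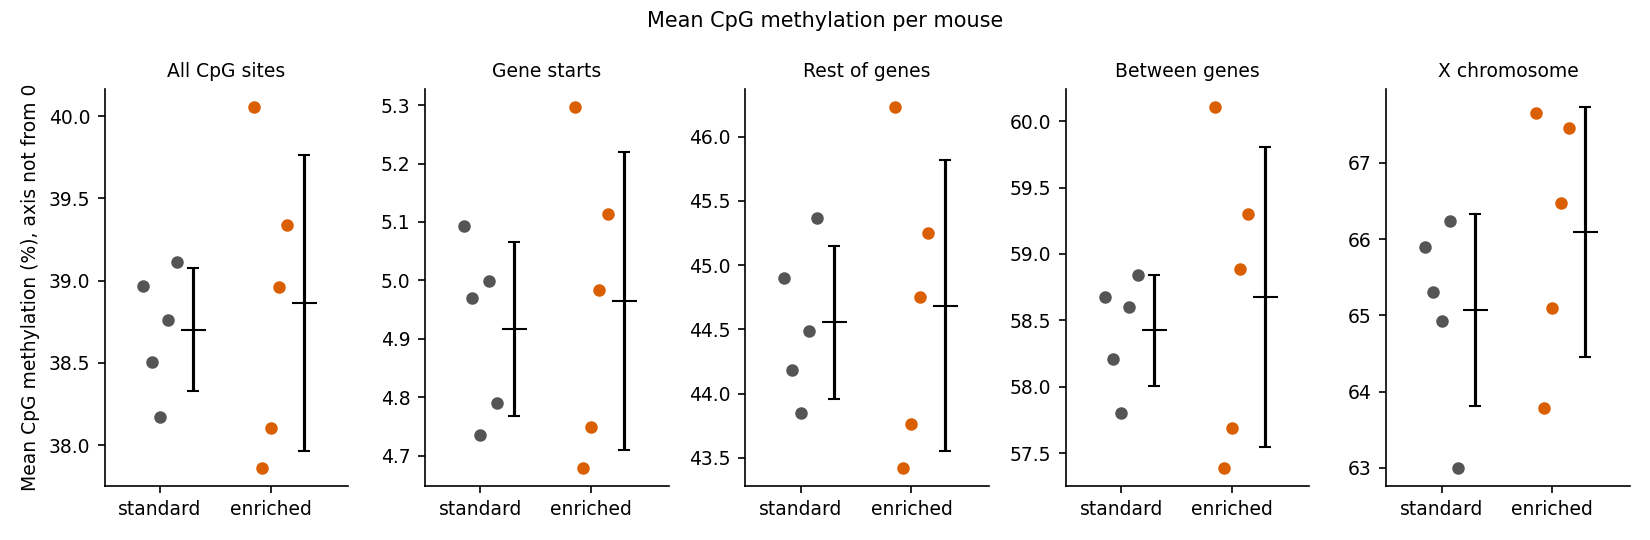
Mean CpG methylation of each mouse in percent (y axes differ between panels and do not start at 0), over all positions and over 4 classes of place. Points are mice, and the bar beside them is the mean with its SD (n = 5). In the first panel the enriched mice span 37.9% to 40.1% and enclose the standard mice at 38.2% to 39.1%.

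No position, window, gene start or gene differed between the housing groups after correction. The test was limma's moderated test on log2((percent + 5)/(100 - percent + 5)), two-sided, with p-values adjusted by Benjamini and Hochberg within each kind of feature and called under 0.05. A feature needed values in at least 3 mice of each group and a range of at least 5 points over the 10 mice. Regions needed at least 3 positions. The share called was 0.0% of 316976 CpG positions, of 43964 windows of 1 kb, of 4332 gene starts and of 10925 genes. At an unadjusted p under 0.05 there were 12151 positions (3.83%), of which 6260 (1.97%) had the larger mean in enriched and 5891 (1.86%) in standard mice. There were 2130 such windows (4.84%), 1107 (2.52%) with the larger mean in enriched and 1023 (2.33%) in standard mice. Gene starts gave 169 (3.9%), of which 82 (1.89%) were higher and 87 (2.01%) lower in enriched mice. Genes gave 525 (4.81%), of which 284 (2.6%) were higher and 241 (2.21%) lower. The shares over both directions (3.83%, 4.84%, 3.9% and 4.81%) each lie below the 5% that the threshold itself allows. The smallest adjusted p was 0.874 for positions, 0.596 for windows, 0.611 for gene starts and 0.0734 for genes, where it belonged to Slc22a8.

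The typical difference between group means was smaller than the SD of mice within a group. With so few mice this ratio depends on group size, so it does not show how large an effect of housing is. The median absolute difference between the group means was 6.0 points at single positions, 3.10 points in windows, 1.77 points at gene starts and 1.81 points in genes. The median SD within a group was 12.4, 6.6, 3.07 and 3.63 points. The mean was larger in enriched mice at 50.7% of positions, 51.0% of windows, 51.4% of gene starts and 52.5% of genes. By place, 3.18% of the 6250 windows at gene starts had an unadjusted p under 0.05, against 5.27% of the 17958 windows inside genes and 4.98% of the 19756 windows between genes. The medians of the absolute difference in these 3 classes were 1.93, 3.47 and 3.36 points.

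**Figure D2:**
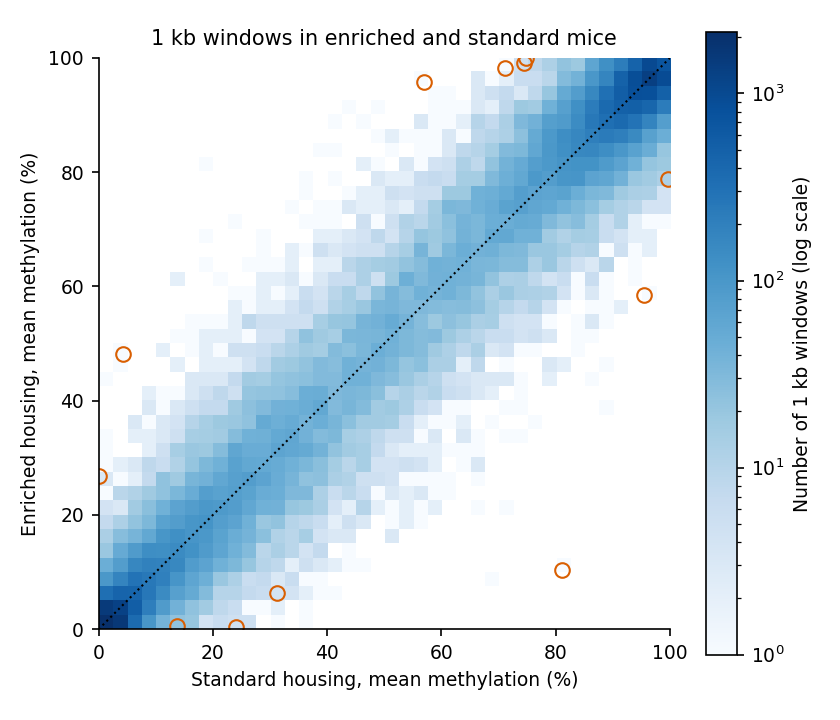
Mean methylation (percent) of 43964 windows of 1 kb in standard mice (x axis) and enriched mice (y axis), with the number of windows per cell as blue on a log scale. Orange circles mark the 12 windows named in the text and the dotted line marks equal levels, along which most windows lie.

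The features described next are those with the smallest p in each direction. A feature with most of its positions already named was replaced by the next. They were chosen for that p, none passed the correction, and their values describe these mice only. RefSeq positions of GRCm38 give the gene or the nearest gene, and exons and introns were not told apart here. The dentate gyrus samples are bulk tissue, so a difference in methylation within a cell type and a difference in the share of cell types cannot be told apart.

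Among windows with the larger mean in enriched mice, only 1 had a value in all 10 mice. It lay at a start of Erg, which encodes an ETS-family transcription factor best known from blood vessel endothelium, at chr16:95458379-95458453. The standard mice stood at 95%, 61.7%, 67.6%, 76.1% and 54.9%, and the enriched mice at 100%, 96.4%, 99.5%, 100% and 95.2%. Every enriched mouse was above every standard mouse, by little in the case of standard 1. The means were 71.0% ± 15.5 and 98.2% ± 2.26 (SD, n = 5 each), the log2 ratio differed by 2.66 (SE 0.544), and limma gave an adjusted p of 0.596. All 5 positions of the window are on the minus strand and each had the larger mean in enriched mice, by 21.9 to 32.6 points. Without regard to size, 63 of the 14211 windows with a value in all 10 mice (0.443%) had every enriched mouse above every standard mouse, and 48 (0.338%) had every enriched mouse below.

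The other windows in that direction rested on fewer mice. Inside Bcl11b, which encodes a transcription factor of postmitotic neurons that granule neurons express, the 3 standard mice with a value stood at 0.0% and the enriched mice 2, 3 and 4 at 30.3%, 15.7% and 34.6% (chr12:107951621-107951661, adjusted p = 0.596 by limma). Over the whole gene, 146 positions averaged 10.1% ± 2.06 in standard and 11.2% ± 1.32 in enriched mice (SD, n = 5 each), so the window was not matched by the gene. Inside Armc5, which encodes an armadillo-repeat protein, the standard mice stood at 42.4%, 50.9%, 77.8% and 56.6% and the enriched mice at 100%, 83.3%, 100% and 100% (chr7:128239398-128239450). Between genes, a window 31.9 kb from Ficd had means of 4.23% ± 7.61 (SD, n = 4) and 48.2% ± 11.7 (SD, n = 3). A window 1256 kb from Nova1 had means of 74.5% and 99.2%, and one 5.76 kb from Trim45 had means of 74.9% and 100%. In each of these 5 windows the groups did not overlap, as in 1186 (2.7%) of all windows tested.

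The window with the smallest p of all had the lower mean in enriched mice. It lay inside Zfyve28, which encodes a FYVE-domain protein of endosomes, at chr5:34269842-34269889. The standard mice 1 to 4 stood at 56.4%, 85.9%, 86.1% and 95.9%, and the enriched mice 2, 4 and 5 at 8.48%, 17.8% and 4.81%. The gap between the groups was wide, and 3 mice had no value. The means were 81.1% ± 17.1 (SD, n = 4) and 10.4% ± 6.68 (SD, n = 3), the log2 ratio differed by -4.79 (SE 0.742), and limma gave an adjusted p of 0.596. Its 4 positions are all on the plus strand. In the test of whole genes Zfyve28 had 5 positions, with means of 64.9% and 8.28% and an adjusted p of 0.138, and leaving out standard 1 brought that to 0.0318.

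Inside Gtf2ird1, a transcription factor gene of the Williams syndrome region, the standard mice stood at 26.9%, 15.03%, 28.4% and 25.6% and the enriched mice at 0.0%, 0.0% and 1.22% (chr5:134402014-134402088, adjusted p = 0.596 by limma). Inside Arhgef28, which encodes a guanine nucleotide exchange factor, the standard mice stood at 24.3%, 46.3%, 24.6% and 29.5%. The enriched mice stood at 6.71%, 4.90%, 8.68%, 6.10% and 5.36% there, a tight group below every standard mouse (chr13:98055361-98055565). This window has positions on both strands, 4 on the plus and 2 on the minus strand, and all 6 had the lower mean in enriched mice. At the 2 minus strand positions the values of the groups overlapped, with standard 1 at 0.0% and enriched 1 at 3.23% and 6.45%. They also overlapped at the plus strand position 98055361. A window in the predicted gene Gm12880 had means of 95.4% ± 6.73 and 58.4% ± 12.7 (SD, n = 4 each). A window 267 kb from Spred2, which encodes an inhibitor of Ras signalling, had means of 99.6% and 78.9%. A window 6.26 kb from Gsx2, a homeobox gene of the developing forebrain, had means of 13.7% and 0.476%. Of the 12 windows, 9 have all their positions on 1 strand, and 9 have no position with a value in all 10 mice.

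**Figure D3:**
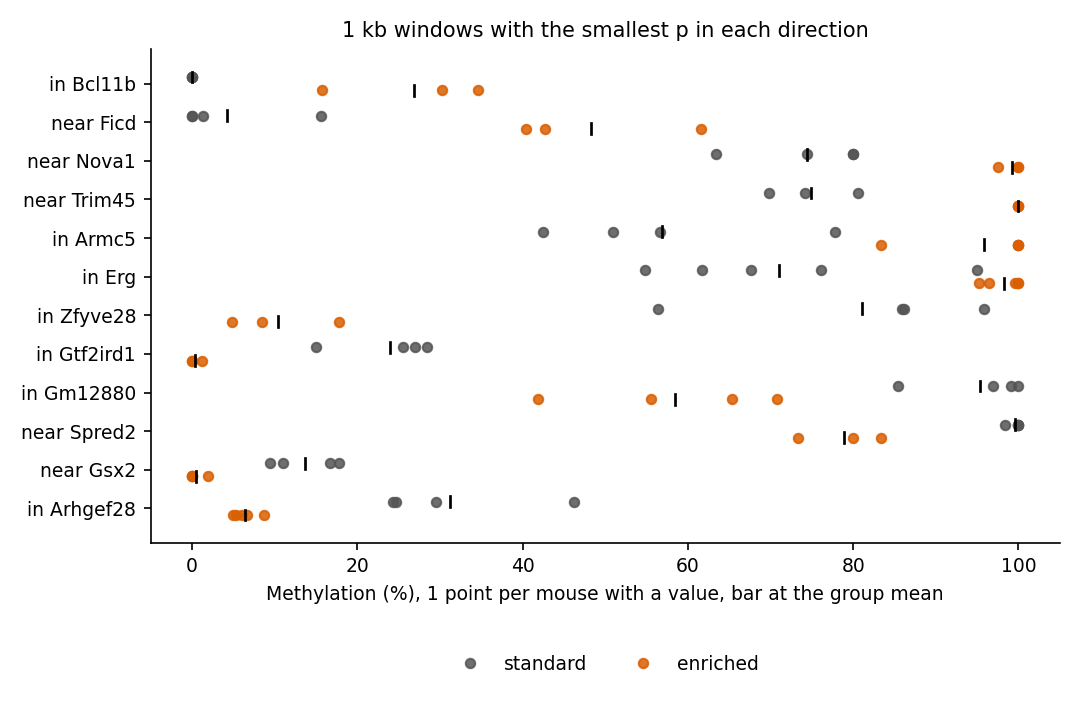
Methylation (percent, x axis) of each mouse in the 12 windows with the smallest p, 6 in each direction, labelled by the gene that holds the window or the nearest gene. Points are mice with a value (grey standard, orange enriched) and bars are group means. The groups are apart in each window, and only Erg shows 10 mice.

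Gene starts were pooled over positions within 1 kb of a RefSeq start. The imprinted gene Nnat, which encodes neuronatin and is expressed from the paternal allele, had 9 positions, inside Nnat and the surrounding gene Blcap, at chr2:157560418-157560478. The standard mice stood at 55.4%, 28.7%, 33.1%, 36.2% and 57.5%. The enriched mice 1, 2 and 5 stood at 100%, enriched 3 at 39.1%, and enriched 4 had no value. Enriched 3 thus lay among the standard mice and the groups overlapped. The means were 42.2% ± 13.3 (SD, n = 5) and 84.8% ± 30.5 (SD, n = 4), the log2 ratio differed by 3.58 (SE 0.853), and limma gave an adjusted p of 0.925. Over the alternatives the adjusted p ran from 0.000252 to 0.940, the lowest without enriched 3, and this gene start was then the only one called. All 9 positions are on the minus strand. Over them standard 2 ran from 25.0% to 30.8%, enriched 1, 2 and 5 were at 100% in each, enriched 3 ran from 36.0% to 53.9%, and standard 1 ran from 30% to 70% with values at 5 of the 9.

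Mapk14 encodes the stress-activated kinase p38 alpha, and its start is a CpG-rich region. All 5 standard mice stood at 0.0%, and the enriched mice at 4.08%, 4.67%, 17.5%, 2.08% and 6.59%, each above every standard mouse, in a test where 2.35% of gene starts had groups apart (7 positions, adjusted p = 0.925 by limma). The positions behind these values differed from mouse to mouse. The value of enriched 1 came mainly from the position at 28692867 (28.6%), that of enriched 2 from 28692841 (29.4%), that of enriched 3 from 28692805 and 28692817 (50.0% and 43.8%) and that of enriched 5 from 28692805 (46.2%). The other 3 positions were at 0.0% in every mouse with a value, and 2 of these lie upstream of the first start. The positions that differed, from 28692805 to 28692867, lie after a second annotated start at 28692568. Gm1070, a predicted gene, had the opposite direction. Its standard mice stood at 84.8%, 90.9%, 58.0%, 66.7% and 72.7%, and the enriched mice at 33.3%, 55.2%, 33.8% and 54.3% with no value in enriched 2. The groups did not overlap, and the means were 74.6% ± 13.4 (SD, n = 5) and 44.2% ± 12.2 (SD, n = 4), with an adjusted p of 0.925 by limma. The difference was unequal over its 3 positions. The first, at 71293530, had means of 33.6% and 5.65%, the second, at 71293576, 100% and 86.0%, and the third, at 71293601, 90.2% and 40.8%. Both upstream sequences are shown because they set a CpG-rich start with almost no methylation beside a CpG-poor one with much of it. They are the 250 bases before the start on the plus strand, chr17:28691092-28691341 for Mapk14 and chr6:71293515-71293764 for Gm1070, from RefSeq on GRCm38, with the measured CpGs in capitals.
Mapk14: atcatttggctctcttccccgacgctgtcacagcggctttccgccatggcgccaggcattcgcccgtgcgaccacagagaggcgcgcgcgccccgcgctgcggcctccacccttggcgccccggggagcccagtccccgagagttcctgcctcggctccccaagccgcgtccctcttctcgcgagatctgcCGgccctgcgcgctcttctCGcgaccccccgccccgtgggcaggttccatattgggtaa
Gm1070: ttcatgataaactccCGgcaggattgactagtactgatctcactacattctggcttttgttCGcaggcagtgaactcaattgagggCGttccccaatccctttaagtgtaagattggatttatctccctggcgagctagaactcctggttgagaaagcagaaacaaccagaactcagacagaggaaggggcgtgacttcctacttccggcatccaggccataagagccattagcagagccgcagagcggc
The Mapk14 stretch holds 30 CpGs, of which 2 were measured, and the Gm1070 stretch holds 8, of which 3 were measured. The Mapk14 stretch precedes the first start of the gene and holds none of the positions that differed.

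The other gene starts with the larger mean in enriched mice were Psme2b, Vmn2r92, Arhgap18 and Ap2s1. Psme2b, a copy of a proteasome activator subunit gene, had means of 67.4% ± 11.5 and 98.9% ± 1.83 (SD, n = 3 each), and, with the smallest p of all gene starts, an adjusted p of 0.611 by limma. Standard 1 and standard 3 had too few of its positions for a value and are not in the standard mean. Where measured, both stood at 100%, within the range of the enriched mice. Enriched 4 and enriched 5, also left out, stood at 93.3% to 100%. Vmn2r92, a vomeronasal receptor gene of a large family, had means of 86.1% and 99.1%. Both have close relatives in the genome, and whether reads of relatives were assigned to them was not tested. Arhgap18, which encodes a GTPase-activating protein, stood at 0.0% in 4 standard mice and 4.17% in standard 5, and at 8.89%, 8.33%, 4.28%, 3.23% and 12.7% in the enriched mice. The groups overlapped through standard 5. Ap2s1, which encodes a subunit of the clathrin adaptor AP-2 used in endocytosis at synapses, had means of 7.28% ± 4.24 (SD, n = 5) and 22.7% ± 6.19 (SD, n = 3). Enriched 1 and enriched 5 had too few of its 4 positions for a value. They stood at 0.0% and 14.1% at 16738997, and both at 0.0% at 16739124. At 16738997, with a value in every mouse, the means were 6.34% in standard and 4.67% in enriched mice. The other 3 positions had the larger mean in enriched mice.

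Gene starts with the lower mean in enriched mice were Chrna3, Akna, Tmem255b, Zdhhc1, Gm1070 and Trim72. Chrna3 encodes a subunit of nicotinic acetylcholine receptors. Its standard mice stood at 18.0%, 14.6%, 7.64%, 5.04% and 9.54%, and its enriched mice at 0.994%, 4.55%, 3.04%, 0.0% and 1.94%, each below every standard mouse. Its means were 10.95% ± 5.25 and 2.10% ± 1.77 (SD, n = 5 each), with an adjusted p of 0.925 by limma. Of its 10 positions 6 had the lower mean in enriched mice, and the differences ran from -18.2 to 10.1 points. Trim72, known as a membrane repair protein of muscle, had 25.9% ± 13.97 (SD, n = 5) and 7.18% ± 4.59 (SD, n = 4) at its start. The whole gene had 51.7% ± 7.23 and 35.7% ± 3.33 (SD, n = 5 each), with no overlap. Its 12 positions include the 6 of the start, so it is not a separate reading. The means were 42.0% and 9.35% for Akna, 9.20% and 0.0% for Tmem255b, and 8.22% and 1.20% for Zdhhc1, a member of the palmitoyltransferase family.

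Of whole genes with 1 kb on either side, Slc22a8 had the smallest p. It encodes the organic anion transporter OAT3, known from kidney, choroid plexus and brain capillaries. The standard mice stood at 59.8%, 45.4%, 61.2% and 49.9% with no value in standard 2, and the enriched mice at 79.8%, 84.1%, 85.2%, 79.9% and 82.1%. Every enriched mouse was above every standard mouse, and the groups were apart in 194 genes (1.78%) in all. The means were 54.0% ± 7.67 (SD, n = 4) and 82.2% ± 2.42 (SD, n = 5), the log2 ratio differed by 1.73 (SE 0.205), and limma gave an adjusted p of 0.0734. When the spread was estimated from all 15 mice of the series, the adjusted p was 0.00546, the lowest over the alternatives, which reached 0.915. The value rests on 4 positions, all on the minus strand, of which 3 lie at the gene start and 1 at 8608682 inside the gene. Their means were 92.4% and 99.0% at 8591040, 29.4% and 82.7% at 8591089, 21.5% and 55.8% at 8591099, and 78.3% and 91.3% at 8608682, so the positions at 8591089 and 8591099 carried most of the difference.

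Other genes with the larger mean in enriched mice were Slc4a3, Pgk1, Capn3, Erlin1 and Utp14a, after leaving out Psme2b, 9930111J21Rik1, which shares its positions, and Vmn2r92, which had been named by their starts. Slc4a3, which encodes an anion exchanger of neurons and heart, had 11.8% ± 6.99 and 64.1% ± 14.4 (SD, n = 3 each), with an adjusted p of 0.39 by limma. Of its 10 positions, all on the minus strand, the 7 with the larger mean in enriched mice lie from 75556875 to 75556928. Those from 75546891 to 75546898 had group means of 4.74% or less. Pgk1 and Utp14a lie on the X chromosome. Pgk1, which encodes a glycolytic enzyme, had 17.2% ± 5.23 and 42.7% ± 6.00 (SD, n = 3 each) at 6 positions just inside its start. Utp14a, which encodes a ribosome assembly factor, had 13.0% ± 2.89 and 23.1% ± 5.52 (SD, n = 5 each) at 14 positions. Their groups did not overlap, and the X chromosome means given above overlapped. Capn3, a calpain protease gene, had values in all 10 mice, with standard mice from 58.1% to 89.6% and enriched mice from 92.0% to 97.8%. Erlin1, which encodes a protein of the endoplasmic reticulum membrane, had 9.51% ± 1.79 (SD, n = 5) and 15.9% ± 0.838 (SD, n = 4) over 22 positions.

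Of genes with the lower mean in enriched mice Zfyve28, described above with its window, had the smallest p, followed by Dennd5a, Trim72, Muc13, Gm32280, Ccm2l and Cyth1. Dennd5a, which encodes an exchange factor for Rab GTPases, had 7.07% ± 0.874 (SD, n = 3) and 0.409% ± 0.277 (SD, n = 4) over 21 positions. Only 5 of those positions had the lower mean in enriched mice, by as much as 62.1 points at 1 of them. The largest differences were at 109896278 and 109896295, where enriched 5 stood at 50.0% and the other enriched mice at 0.0%. Enriched 5 had too few of the 21 positions for a value over the gene, so it is not in the enriched mean or SD. Cyth1, which encodes an exchange factor for Arf GTPases, had 27.9% ± 6.70 (SD, n = 5) and 14.2% ± 2.72 (SD, n = 4). Ccm2l had 29.3% ± 12.8 (SD, n = 4) and 4.03% ± 3.57 (SD, n = 3), and Muc13, a mucin gene, 93.9% ± 3.36 and 71.1% ± 9.67 (SD, n = 4 each). Gm32280, with positions that also fall in Zbtb16, had 19.6% ± 2.08 and 12.4% ± 2.08 (SD, n = 5 each). For Gm32280 the direction was the opposite, at 1.97 points, when only positions with a value in all 10 mice were averaged.

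**Figure D4:**
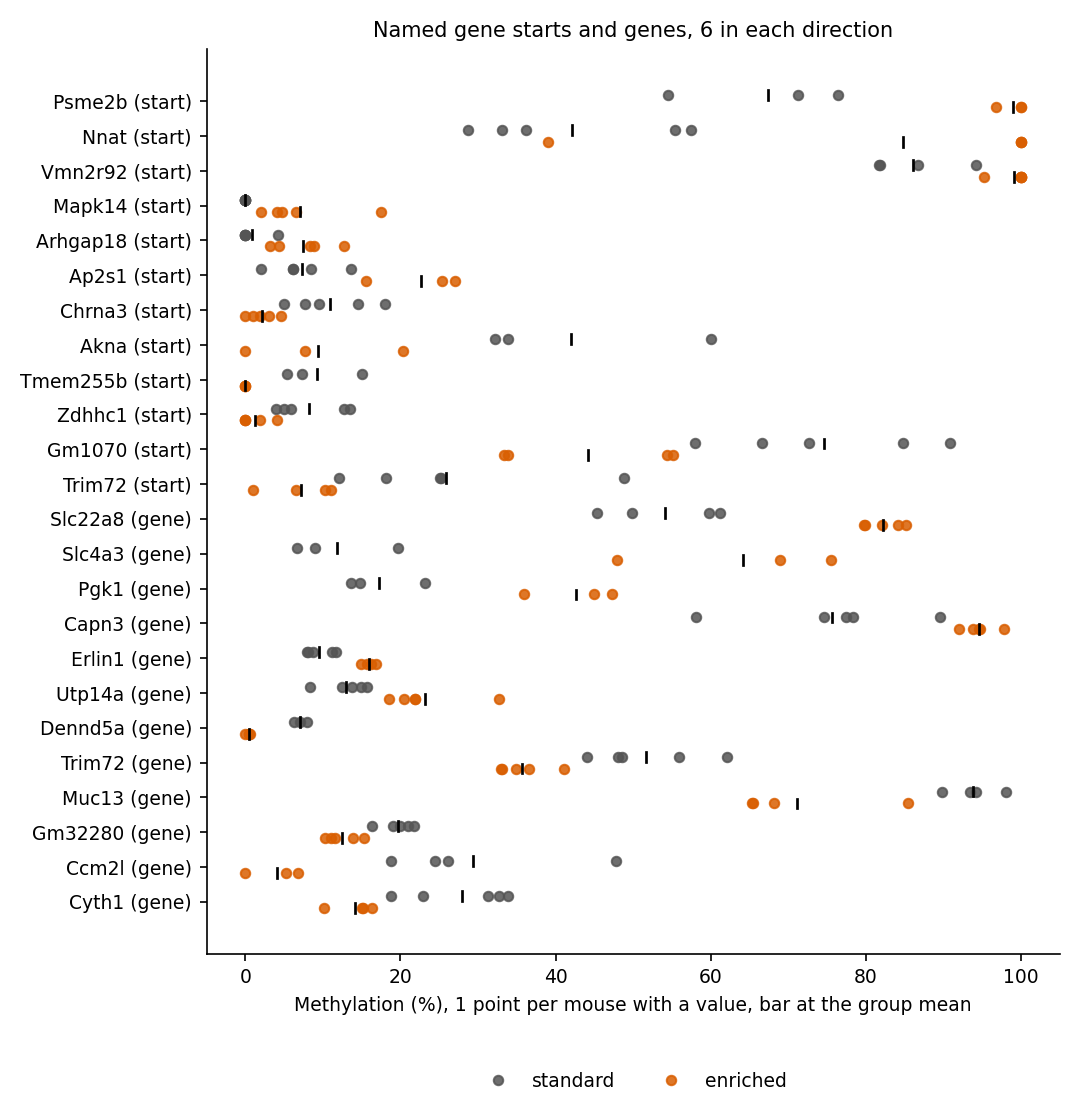
Methylation (percent, x axis) of each mouse at 12 gene starts and 12 genes, 6 of each in each direction. They have the smallest p after leaving out features with most of their positions already named. Points are mice with a value (grey standard, orange enriched) and bars are group means. The groups overlap at Nnat, Arhgap18 and Zdhhc1 and are apart in the others, and Nnat shows 3 enriched mice at 100% and 1 at 39.1%.

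Single positions with the smallest p had 1 group at 0% or 100% in every mouse. A position 22.8 kb from Klra4, a natural killer cell receptor gene, stood at 41.5%, 28.0%, 19.4%, 45.7% and 0.0% in standard mice and at 100% in the 4 enriched mice with a value (adjusted p = 0.874 by limma). A position 20.3 kb from Rbfox1, which encodes a neuronal splicing factor, stood at 52.9%, 60.0%, 73.1%, 77.4% and 60.9% in standard mice and at 100% in all 5 enriched mice. At a position 80.1 kb from Tmco5 the 5 standard mice stood at 0.0% and the 3 enriched mice with a value at 100%, 36.4% and 100%. In the other direction, a position in the cell adhesion gene Sdk1 stood at 100% in 5 standard mice and averaged 48.0% ± 14.98 (SD, n = 4) in enriched mice. The X-linked gene Msn, which encodes moesin, held a position at 100% in 4 standard mice and at 65.0% ± 6.68 (SD, n = 5) in enriched mice. Positions in the myosin gene Myo10 and 25.3 kb from Stim2 stood at 51.6% and 35.1% in standard mice and at 0.0% in the enriched mice. Of all tested positions, 4291 (1.35%) had groups that did not overlap.

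How far neighbouring positions shared a difference was described over pairs of positions, with no test, since pairs within a library share its reads and its depth. The 2 strands of a CpG come from separate reads. Over 14261 CpGs measured on both, the level correlated at r = 0.957, but the enriched minus standard difference at r = 0.0207, with the same sign in 50.1% of pairs. Positions on the same strand 2 to 30 bases apart, which 1 read can cover, had differences correlated at r = 0.311 over 99670 pairs, and those 31 to 100 bases apart at r = 0.208. Over longer distances, up to 1000 bases, the correlation of the differences was 0.00736 while that of the levels was still 0.8285. The deviation of a single mouse from its group mean behaved in the same way, with r = 0.0224 between the strands over 106571 values. Whole regions also gave little agreement of their strands. In 7637 windows with at least 3 positions on each strand, the difference on the plus strand and that on the minus strand correlated at r = 0.0314 and had the same sign in 50.7%. In 7413 genes the correlation was 0.0386, with the same sign in 50.2%. Of the 36 regions named above by their p, 22 have all their positions on 1 strand, among them Erg, Nnat, Zfyve28 and Slc22a8, so the opposite strand gives no second reading of them.

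**Figure D5:**
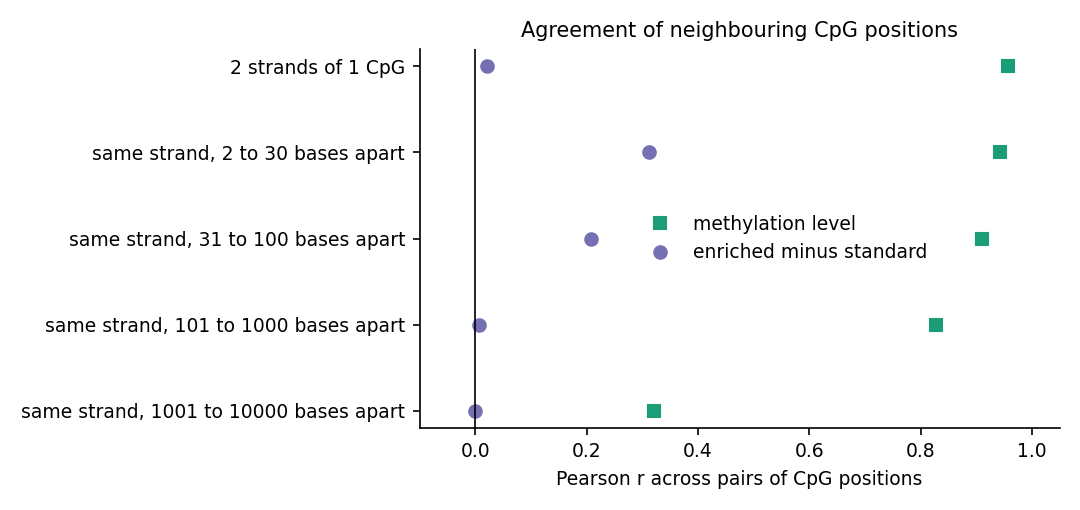
Pearson correlation (x axis) across pairs of CpG positions for the methylation level (green squares) and for the enriched minus standard difference (purple circles), by the distance and strand of the pair. Levels stay correlated at 0.8285 or more up to 1000 bases, while differences correlate at 0.311 within 30 bases of the same strand and at 0.0207 between the 2 strands of a CpG.

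Gene lists by role were then read from the gene test. No member of any list passed the correction, and each count stands beside 525 of 10925 genes (4.81%) at an unadjusted p under 0.05, 52.5% of genes with the larger mean in enriched mice and a median difference of 0.188 points. When each mouse was left out in turn, the median difference of the activity-regulated and the glutamate lists kept its sign, and that of the other 6 pathway lists changed sign without 1 or more of the mice. Activity-regulated plasticity genes, which neurons switch on after firing, had 10 of 12 tested members with the larger mean in enriched mice and a median difference of 1.11 points. Only Fosl2, which encodes a partner of Fos in the AP-1 factor, had an unadjusted p under 0.05. It stood at 4.21%, 7.86%, 7.78%, 5.39% and 7.02% in standard mice and at 13.6%, 9.20%, 6.87% and 10.5% in enriched mice, with overlap (adjusted p = 0.955 by limma). Among the rest, Npas4, a transcription factor gene induced by calcium entry, had 13.7% ± 6.15 (SD, n = 5) and 17.3% ± 5.86 (SD, n = 4). Nr4a3 had 10.9% ± 3.05 and 13.3% ± 2.03 (SD, n = 5 each), Homer1, a postsynaptic scaffold gene, 12.3% ± 3.90 (SD, n = 4) and 14.8% ± 5.88 (SD, n = 5), and Fos 13.9% ± 3.48 (SD, n = 3) and 15.4% ± 3.18 (SD, n = 4). Nptx2, which encodes a secreted pentraxin at excitatory synapses, went the other way with 9.25% ± 2.27 and 6.22% ± 2.79 (SD, n = 5 each).

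A mean over the 21 activity-regulated genes, variable or not, was taken for each mouse from the genes where it had a value. Each gene entered as the mouse's deviation from the gene's mean. Among tested members, standard 1 had no value in Dusp1, Egr3, Fos, Homer1, Nr4a1, Nr4a2 and Per1, and enriched 1 none in Fos and Npas4. The mean was 6.72%, 6.32%, 6.71%, 6.10% and 6.28% in the standard mice. It was 7.19%, 7.42%, 6.95%, 7.31% and 8.18% in the enriched mice. Every enriched mouse was above every standard mouse, by 0.985 points between the means of 6.42% and 7.41%. The mean over all 14891 genes was 28.7% to 29.4% in standard and 28.4% to 30.2% in enriched mice, which overlap. Of 16 lists and marker sets looked at in this way, this was the only one whose groups did not overlap. At the starts of 14 of these genes the groups overlapped, with 0.722% to 3.24% in standard and 1.33% to 3.18% in enriched mice.

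Of the 14 tested genes of adult neurogenesis and granule cells, 9 had the larger mean in enriched mice, the median difference was 0.268 points and none had an unadjusted p under 0.05. Prox1, the granule neuron identity factor, had 9.14% ± 2.60 and 9.90% ± 1.52 (SD, n = 5 each). Sox2, a stem cell factor, had 2.27% ± 3.37 and 2.39% ± 2.85, and Eomes, a factor of intermediate progenitors, 10.1% ± 2.54 and 10.5% ± 3.84 (SD, n = 5 each). Lef1, a nuclear effector of Wnt signalling, had 46.6% ± 2.05 and 44.0% ± 1.83 (SD, n = 5 each) over all its positions. Its difference was 0.46 points in the other direction when only positions with a value in all 10 mice were averaged. The start of Nes, which encodes the stem cell filament nestin, stood at 0.0% in 3 standard mice and at 0.0%, 1.19% and 6.86% in 3 enriched mice.

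Of 12 neurotrophic and growth factor genes tested, 8 had the larger mean in enriched mice, and none had an unadjusted p under 0.05. Fgf2, a growth factor gene, had 61.2% ± 5.58 and 67.2% ± 6.65, and Kdr, a receptor of vascular endothelial growth factor, 44.2% ± 7.27 and 37.5% ± 2.09 (SD, n = 5 each). Ntrk2, which encodes the receptor of BDNF, had 38.1% ± 3.50 and 40.8% ± 3.53 (SD, n = 5 each). Of 28 glutamate receptor and postsynaptic scaffold genes tested, 19 had the larger mean in enriched mice, with a median difference of 0.682 points, and only the X-linked receptor subunit gene Gria3 had an unadjusted p under 0.05. It stood at 44.1%, 46.6%, 33.0%, 39.8% and 34.8% in standard mice and at 48.8%, 43.0%, 50.5%, 52.1% and 46.6% in enriched mice, with overlap (adjusted p = 0.955 by limma). The NMDA receptor genes Grin1, Grin2a and Grin2b differed by -0.22, 0.70 and -0.26 points.

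Of 14 GABA signalling genes tested, 8 had the larger mean in enriched mice, and the median difference was 0.576 points. Gad1, which encodes an enzyme of GABA synthesis, had 8.37% ± 4.39 and 9.43% ± 2.07 (SD, n = 5 each). Of 17 synaptic adhesion genes, 12 had the lower mean in enriched mice, with a median difference of -0.49 points. Lrrtm2, a postsynaptic partner of neurexins that lies within Ctnna1, had 14.6% ± 13.2 (SD, n = 5) and 1.17% ± 2.34 (SD, n = 4), and standard 4 at 0.0% overlapped with the enriched mice (adjusted p = 0.955 by limma).

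Of 13 genes that write, read or erase DNA methylation, 6 had the larger mean in enriched mice. Tet2, which encodes an enzyme that oxidises methylcytosine, was the only one with an unadjusted p under 0.05. It stood at 48.8%, 45.6%, 45.1% and 45.8% in standard mice and at 51.7%, 51.3%, 47.1%, 60.6% and 53.8% in enriched mice, so that enriched 3 fell below standard 2 (adjusted p = 0.955 by limma). The methyltransferase genes Dnmt1 and Dnmt3a differed by -0.34 and -1.05 points. Of 5 stress hormone axis genes tested, 3 had the larger mean in enriched mice and none had an unadjusted p under 0.05. The mineralocorticoid receptor gene Nr3c2 had 15.9% ± 5.19 (SD, n = 4) and 17.8% ± 2.25 (SD, n = 5), the glucocorticoid receptor gene Nr3c1 7.46% ± 4.31 and 8.84% ± 2.32 (SD, n = 5 each), and Pomc 3.58% ± 1.91 (SD, n = 5) and 2.33% ± 1.23 (SD, n = 4).

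Markers of the cell types that the dissection could hold were read in the same way. Methylation does not show how much of a cell type is present, and these values were set down as a check of the tissue label only. Granule neuron genes averaged 12.2% to 14.7% in standard and 11.8% to 14.8% in enriched mice, and microglia genes 85.2% to 89.0% and 84.4% to 89.0%. Choroid plexus genes averaged 54.6% to 61.4% and 57.2% to 62.4%, and oligodendrocyte genes 36.9% to 42.5% and 32.9% to 43.2%. Astrocyte genes averaged 20.3% to 23.7% in standard and 12.7% to 22.9% in enriched mice, and all 4 tested had the lower mean in enriched mice. The same direction held for all 3 tested pyramidal neuron genes, and the opposite for all 3 tested interneuron genes. The astrocyte gene Aldh1l1, named after its values were seen, had 39.6% ± 8.27 and 28.8% ± 6.36 (SD, n = 5 each), with an unadjusted p under 0.05 that did not pass the correction. In each of the 8 marker sets the values of the groups overlapped. The part of cell type shares in the differences above was not tested.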

How the data were processed

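RRBS libraries of micro-dissected dentate gyrus were made with a commercial kit, per the labels' protocols. The submitters' processing notes name Trim Galore 0.4.0, cutadapt 1.8.1, Bismark 0.16.1, methylKit 1.5.2 and the build mm10, which is GRCm38. The authors deposited the percent methylation of each cytosine and strand, 1 column per mouse, without coverage, and the coverage minimum and other filters are not given in the sources used here. Groups come from the housing label. The members and gene lists were chosen with earlier results of these data known.

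A CpG position is one before the chromosome column restarts. Genes come from RefSeq (GRCm38.p6, 21631 protein-coding genes), and 17274 of these had a start with strand in the promoter table, 21045 starts in all. A gene start is within 1 kb of one, and a gene is taken with 1 kb on both sides. Windows are fixed 1 kb stretches. A region needs 3 positions, and a mouse has a value where it has at least 3 positions and no fewer than it lacks. That value is the region's mean plus the mean deviation of the mouse from the mean of each position, kept within 0 to 100. limma 3.58.1 in R 4.3.3 fitted the 2 groups with a variance trend, and mice with no value at a feature were left out of its fit. The fitting code was tested on simulated data. Single values per mouse were tested by exact permutation, where the smallest p is 0.00794. No label says whether mice shared a cage, so p-values measure the spread between these mice only.

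The text names, in each direction, the 6 windows, gene starts and genes and the 4 positions with the smallest p. A feature with most of its positions already named is replaced by the next. Also named are the members of each list with an unadjusted p under 0.05 (otherwise the 2 smallest). Further list members were chosen after their values were seen. A few features that this rule names are not reported here. Alternatives were the offset, the percent scale, the spread from 15 mice, the range filter, complete values, the variance trend, the averaging, 6 positions per region, the replicate block and leaving out each mouse.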

Additional observations from a re-analysis of the deposited data

Results flagged for a closer look

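A mouse was singled out where it lay far from the other 3 or 4 of its group by Dixon's criterion. Of 104 groups of 4 or 5 mice examined, 12 had such a value. The criterion's usual chance rate of about 1 in 20 does not apply here, so the count of 12 cannot show an excess. In several of these groups, among them those near Spred2 and Gsx2, the other mice all had the same value. Any departure from such a tie is singled out, however small. Many of the features were also chosen for their small p, which favours a small spread within groups. Standard 1 had the fewest positions with a value, 297716, against 386520 or more in the other standard mice. At the start of Nnat, enriched 3 stood at 39.1% where the other 3 enriched mice stood at 100%. In the window near Ficd standard 2 stood at 15.6%, in that in Armc5 enriched 2 at 83.3%, in that near Spred2 standard 5 at 98.4%, and in that near Gsx2 enriched 4 at 1.91%. At the starts of Vmn2r92 and Arhgap18, enriched 3 stood at 95.3% and standard 5 at 4.17%. In whole genes, enriched 1 stood at 32.7% in Utp14a and 33.9% in Kdr, enriched 3 at 85.5% in Muc13, and enriched 4 at 4.69% in Lrrtm2. Enriched 3, the mouse with the most positions, is the one set apart in 3 of the 12. The cause of these values was not tested.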

How the results depend on the processing

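The differences in mean methylation changed sign in 1 or more alternatives except on the X chromosome. With the plain mean over the positions a mouse has, the overall difference was -0.398 points, and without each mouse in turn it ran from -0.148 to 0.418. Left out in the same way, gene starts ran from -0.0387 to 0.121, the rest of genes from -0.271 to 0.454, between genes from -0.118 to 0.576, and positions under 20%, from 20% to 80% and over 80% from -0.135 to 0.0824, -0.452 to 1.53 and -0.0284 to 0.387. The X chromosome ran from 0.507 to 1.603. Positions under 20% with a value in all 10 mice gave 0.000572. The difference in the number of positions ran from -20680 to 7933.

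Without the range filter 88 positions were called, 42 higher and 46 lower, and in 85 of them every mouse of 1 group was at 0% or 100%. All 88 were also tested with the filter, where none was called, and the cause was not tested. Without a mouse, called windows ran from 0 to 1, gene starts from 0 to 1 and genes from 0 to 2. Leaving out enriched 3 called the Nnat window (adjusted p = 0.0144), its start (0.000252) and the genes Nnat (0.00378) and 2810004N23Rik (0.0203). Leaving out standard 2 called the start of Chst12 (0.0208), where standard 2 stood at 30.8% and the other standard mice at 0.0% to 2.15%, and leaving out standard 1 called the gene Zfyve28 (0.0318). With the spread from 15 mice 1 gene, Slc22a8, was called. The other alternatives called none. Features at an unadjusted p under 0.05 numbered 4469 positions, 705 windows, 64 gene starts and 282 genes where all 10 mice were required, 709 windows, 106 gene starts and 332 genes over complete positions, 675 windows with at least 6 positions (fewer features are tested in these), 424 gene starts without the range filter (more are tested) and 326 genes by the plain mean. Of the named features, 2 changed direction, Gm32280 (1.97 points) and Lef1 (0.464 points), both over positions complete in 10 mice.

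The medians of the lists under the settings of the gene test were added after seeing the data. The median of the activity-regulated genes was 0.692 without the range filter, 0.567 over complete positions, 0.690 with all 10 mice and 0.621 to 1.68 without each mouse. That of the neurogenesis genes was -0.882 and of the stress genes 2.48 over complete positions. Without each mouse, that of the glutamate genes ran from 0.0676 to 2.05, methylation genes -2.35 to 0.615, GABA genes -0.0679 to 1.11, neurogenesis genes -0.436 to 0.714, synaptic adhesion genes -1.73 to 0.184, neurotrophic genes -0.0919 to 1.36 and stress genes -0.506 to 1.28.

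Replicate numbers are shared by the titles of the groups. No label gives these numbers a meaning, and they were not taken as pairs. The deviations of same-numbered mice correlated at -0.00959 to 0.0186 over 14211 windows. This cannot tell whether the numbers mark pairs, since the deviation of 1 mouse correlated at only 0.0224 between the strands of a CpG. With a replicate block, 0 positions, windows, gene starts and genes were called by limma, and 11701, 2003, 157 and 552 had an unadjusted p under 0.05. The smallest adjusted p of any gene was 0.798 with the block, and that of Slc22a8 was 0.915. The block left the mean difference at 0.162 points, and its exact p cannot be under 0.0625. Depth is unknown, so low coverage behind single values of 0% or 100% could not be told from full methylation or its absence.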
